A study of Homo sapiens with 33 samples.

Results

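The lysosome genes described here are a fixed list of 37 symbols: membrane proteins of the organelle, proteases, glycosidases and sulfatases, proteins that handle lipids, subunits of the proton pump, and the transcription factors TFEB and TFE3. Each gene was read from its brightest probe set, the one with the highest mean over all 33 arrays, and 36 of the 37 genes were measured among 19775 genes. GLB1, the lysosomal beta-galactosidase, had a probe set that also names another gene and was left out. The arrays were run on RNA of Karpas422, an established human line of diffuse large B cell lymphoma with mutant EZH2, according to the title of the series. By the sample titles, which set the groups, cells received EED226, at 5 µM by the treatment protocol. The design text speaks of an EZH2 inhibitor instead, and that protocol also names another compound, EI1. EED226 binds the EED subunit of the Polycomb repressive complex PRC2 and inhibits it allosterically, and control cells received the solvent DMSO. Both arms were sampled at 8 h and at days 1, 2, 3 and 6, and cells at 0 h, whose treatment the labels do not give, made a further group, with 3 arrays in each of the 11 groups. All groups are 1 cell line, so the values describe that line.

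Lysosomes are acidic compartments in which hydrolases break down protein, glycans and lipid, and the V-ATPase pumps the protons that keep them acidic. TFEB and TFE3 are basic helix-loop-helix factors that mTORC1 holds in the cytoplasm in fed cells. When they reach the nucleus they bind E-boxes of the CLEAR type near the starts of many lysosomal genes. In B cells, lysosomal and late endosomal proteases also process antigen for presentation on MHC class II. The RNA of TFEB or TFE3 does not show where the protein is.

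Because TFEB and TFE3 are in the list, the promoters of its genes were read first for the E-box CACGTG, on both strands. RefSeq promoter windows on GRCh38.p14, each running from 250 bases before to 50 bases after a gene's start, were at hand for 27 of the 37 genes. CACGTG was present in 8 of these 27 genes (29.6%), against 10.9% of the array genes that have a window. The longer form TCACGTG was in 7 of the 27 (25.9%, against 5.91%), the palindrome TCACGTGA in 5 (18.5%, against 1.66%), and that palindrome with G before it and C after it in 2 (7.41%, against 0.65%). These forms contain one another, so a gene with the longest form also counts under each shorter one. A match is a description of the letters and says nothing of binding.

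The sites below show how the matches differ between the 8 genes; each is printed 5′ to 3′ along the gene's strand with the longest matched form in capitals.
LAMP1 (chr13:113297199-113297228, plus strand): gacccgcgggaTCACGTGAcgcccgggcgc
LAMP1 (chr13:113297085-113297114, plus strand): gccgctgcgggTCACGTGtcggcctgcatc
MCOLN1 (chr19:7522598-7522627, plus strand): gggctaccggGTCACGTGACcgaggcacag
MCOLN1 (chr19:7522571-7522600, plus strand): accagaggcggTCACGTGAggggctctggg
GAA (chr17:80101493-80101522, plus strand): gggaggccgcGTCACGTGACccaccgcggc
GAA (chr17:80101538-80101567, plus strand): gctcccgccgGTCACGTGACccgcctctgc
CTSA (chr20:45891298-45891327, plus strand): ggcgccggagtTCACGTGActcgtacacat
ATP6V0D1 (chr16:67481199-67481228, minus strand): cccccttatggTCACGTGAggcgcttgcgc
NEU1 (chr6:31862930-31862959, minus strand): atgctgcgtgaTCACGTGggaggagatgag
CTSD (chr11:1763957-1763986, minus strand): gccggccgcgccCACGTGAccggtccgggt
CD63 (chr12:55729172-55729201, minus strand): ccgggtaggggcCACGTGgccctggccggg

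LAMP1, a main glycoprotein of the lysosomal membrane, had 6 matches in its window, whose CACGTG core began 192, 176, 159, 142, 28 and 1 bases before the start. In MCOLN1, which encodes the calcium channel TRPML1, the core of the 2 matches began 41 and 14 bases before the start. In GAA, acid alpha-glucosidase, 2 copies of the longest form were present, with the core beginning 76 and 31 bases before the start. CD63, a tetraspanin of late endosomes and lysosomes, had windows at 8 starts; 1 of these held the short form, 180 bases before that start, and 7 held no CACGTG.

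With EED226, lysosome genes moved late and mostly upward. A gene is said to have passed the test where limma's adjusted p was under 0.05, with Benjamini-Hochberg adjustment over all 19775 genes. None of the 36 genes passed the test at 8 h, where 0% of all genes did, and 0 of the 36 had an unadjusted p under 0.05, against 2.03% of all genes. At day 1, 1 gene rose and 0 fell, where 0.87% of all genes passed, 0.834% as higher and 0.0354% as lower. At day 2, 6 rose and 3 fell, where 9.44% of all genes passed, 6.76% as higher and 2.68% as lower. Day 3 brought 13 rises and 4 falls, where 22.9% of all genes passed, 11.7% as higher and 11.2% as lower. By day 6, 24 of the 36 genes had risen and 3 had fallen (75%), where 51% of all genes passed, 23.7% as higher and 27.3% as lower. In these shares, here and below, the 19775 genes were not matched to the 36 by signal level. Of the 36, only 1, CTSL, had day 6 means below 4.06, the lowest array median, in both arms. The part of signal level in the contrast with all genes was not tested.

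The median log2 difference between EED226 and DMSO over the 36 genes was 0.02 at day 1, 0.03 at day 2, 0.20 at day 3 and 0.63 at day 6. Over all genes it was -0.01, -0.03, -0.02 and -0.11. At day 6, 9 of the 36 genes had risen at least 2-fold, against 8.06% of all genes, and 5 had at day 3, against 2.7%. The DMSO and EED226 arrays did not overlap in 10 of the 36 genes at day 1 (13.6% of all genes), 16 at day 2 (30.2%), 25 at day 3 (36.8%) and 27 at day 6 (51.7%).

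**Figure D1:**
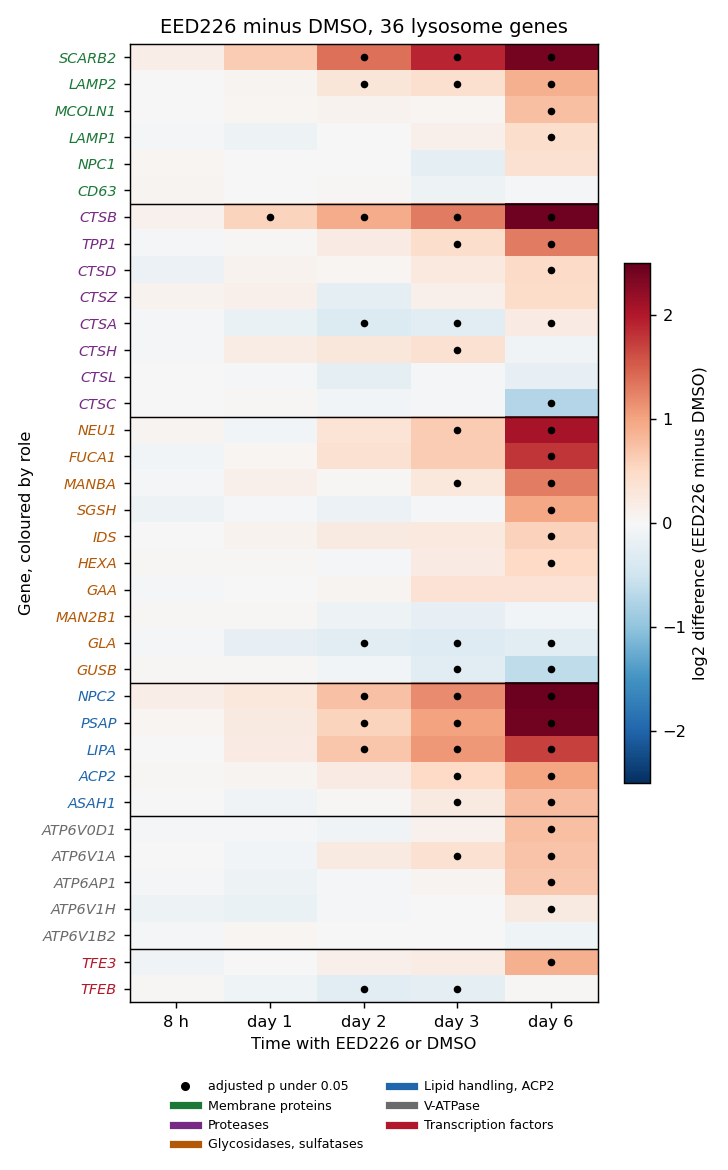
Colour gives the log2 difference between EED226 and DMSO for each of the 36 lysosome genes (rows, ordered by role and day 6 value) at 5 times (columns), and a dot marks an adjusted p under 0.05. Dots number 0 at 8 h and 27 at day 6, of which 24 are rises and 3 are falls.

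The lipid-handling genes rose together: all 5 passed the test at day 3 and at day 6, with a median difference of 1.01 and 1.70, and 3 of the 5 had already risen at day 2. NPC2, the soluble protein that passes cholesterol to NPC1 inside the lysosome, read 8.69, 8.62 and 8.44 in the DMSO arrays at day 6 and 11.06, 11.16 and 10.88 in the EED226 arrays. The EED226 arrays lay far above the DMSO arrays without overlap, a difference of 2.45 ± 0.08 (SE, n = 3), or 5.46-fold (limma, adjusted p = 2.41e-19). Its difference was 0.73 ± 0.08 at day 2 and 1.18 at day 3.

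PSAP encodes prosaposin, the precursor of the saposins that present sphingolipids to their hydrolases. Its arrays read 9.04, 9.07 and 8.81 with DMSO at day 6 and 11.36, 11.42 and 11.37 with EED226. This was a rise of 2.41 ± 0.09, or 5.31-fold (limma, adjusted p = 2.01e-18), after 0.55 at day 2 and 1.01 at day 3. A further probe set of PSAP rose by 2.12 at day 6.

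LIPA, the acid lipase that splits cholesteryl esters and triglycerides, read 8.67, 8.61 and 8.80 with DMSO and 9.38, 9.34 and 9.48 with EED226 at day 2. At day 6 the values were 8.80, 8.82 and 8.86 with DMSO against 10.66, 10.55 and 10.38 with EED226. The groups were apart at both times, by 0.70 at day 2 and 1.70 ± 0.08 at day 6 (limma, adjusted p = 1.85e-15).

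ACP2, lysosomal acid phosphatase, was counted with these genes. It read 6.73, 6.89 and 6.73 with DMSO and 7.24, 7.32 and 7.26 with EED226 at day 3, and its difference grew from 0.49 at day 3 to 0.98 ± 0.09 at day 6. ASAH1, acid ceramidase, rose by 0.22 at day 3 and by 0.78 ± 0.06 at day 6, though 1 dim probe set of ASAH1 fell by 0.21.

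**Figure D2:**
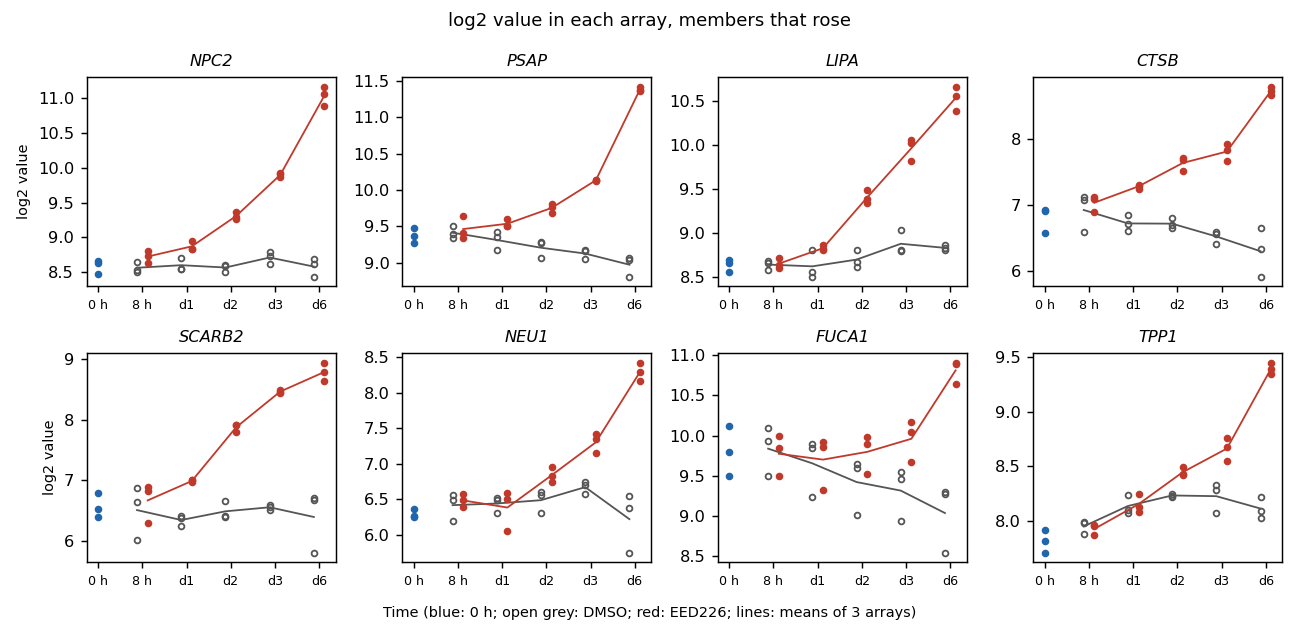
Each panel plots the log2 value of 1 rising gene on every array (vertical axis) against time (horizontal axis), with blue points at 0 h, open grey points for DMSO, red points for EED226 and lines through the means of 3 arrays. The NPC2 arrays with EED226 climb from between 8.83 and 8.95 at day 1 to between 10.88 and 11.16 at day 6, while the DMSO arrays stay between 8.44 and 8.79.

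Of the 8 proteases measured, 4 rose and 1 fell at day 6, with a median difference of 0.32. CTSB, the cysteine protease cathepsin B, was the first gene of the list to pass the test. At day 1 it read 6.61, 6.85 and 6.71 with DMSO and 7.31, 7.29 and 7.25 with EED226, and the groups did not overlap. The rise of 0.56 ± 0.14 passed narrowly (limma, adjusted p = 0.0448) and did not pass when any 1 of the 6 arrays was left out, with adjusted p from 0.0683 to 0.242. With the array number as a block, 2 genes passed at day 1: CTSB and SCARB2, whose rise of 0.64 ± 0.19 had an adjusted p of 0.133 without the block and 0.0398 with it in limma.

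At days 2, 3 and 6 the CTSB rise passed under every alternative run. At day 6 its DMSO arrays read 6.33, 6.66 and 5.92 and its EED226 arrays 8.67, 8.73 and 8.79, a rise of 2.43 ± 0.14 or 5.38-fold (limma, adjusted p = 2.44e-14). Its 4 other probe sets rose by 1.23 to 2.72.

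TPP1, a tripeptidyl peptidase, rose by 0.44 at day 3. At day 6 it read 8.09, 8.22 and 8.03 with DMSO and 9.39, 9.45 and 9.35 with EED226. These values differ by 1.29 ± 0.08 without overlap (limma, adjusted p = 4.4e-14).

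CTSC, dipeptidyl peptidase I, which activates serine proteases of immune granules, went the other way. Its day 6 arrays read 11.50, 11.45 and 11.45 with DMSO and 10.68, 10.60 and 10.89 with EED226. That fall of 0.74 ± 0.08 (limma, adjusted p = 3.09e-09) came after day 3, where the arrays of both arms lay between 11.29 and 11.47. Its 3 other probe sets gave differences between -0.33 and 0.14.

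CTSA, the carboxypeptidase that stabilises the sialidase NEU1, changed direction over time. At day 2 it read 8.68, 8.61 and 8.58 with DMSO and 8.36, 8.19 and 8.28 with EED226, a fall of 0.35 (limma, adjusted p = 0.00136). At day 6 the DMSO arrays read 8.35, 8.45 and 8.28 and the EED226 arrays 8.54, 8.62 and 8.52. The groups again did not overlap, now with EED226 higher by 0.20 ± 0.07 (limma, adjusted p = 0.0211). The day 6 minus day 3 change in its difference, 0.48, passed the test, while the day 6 rise did not pass under 6 of 15 alternatives. Among these were leaving out DMSO array 1, DMSO array 3 or EED226 array 2, which gave 0.19, 0.16 and 0.17.

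In the remaining proteases the arrays of both arms overlapped at day 6. CTSD, the aspartic protease cathepsin D, read 4.18, 4.42 and 3.44 with DMSO and 4.70, 4.52 and 4.25 with EED226 at day 6. Its DMSO mean, 4.02, lay below the lowest array median, 4.06. The difference of 0.47 ± 0.18 passed (limma, adjusted p = 0.0279) and was 0.19, 0.37 and 0.46, not passing, without DMSO array 3, EED226 array 1 or EED226 array 2. CTSH rose by 0.39 at day 3 and, with the array number as a block, by 0.28 at day 2. At day 6 CTSH gave -0.09 without passing. With the ACTB 3′ to 5′ difference as a covariate it gave -0.37 and passed as lower (limma, adjusted p = 0.0164). CTSZ differed by 0.45 ± 0.19 at day 6 without passing (limma, adjusted p = 0.0504). CTSZ passed without DMSO array 2 (0.61) or EED226 array 1 (0.65). CTSL lay below the lowest array median, 4.06, in both arms at day 6.

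Of the 10 glycosidases and sulfatases measured, 6 rose and 2 fell at day 6, with a median difference of 0.54. NEU1, which removes sialic acid from glycans, read 6.37, 6.54 and 5.75 with DMSO and 8.42, 8.29 and 8.16 with EED226. The lowest EED226 array was well above the highest DMSO array, and the rise was 2.07 ± 0.15 or 4.19-fold (limma, adjusted p = 2.4e-12). At day 3 it had risen by 0.63.

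FUCA1, the lysosomal fucosidase, read 9.29, 9.27 and 8.54 with DMSO and 10.89, 10.91 and 10.64 with EED226 at day 6, a rise of 1.78 ± 0.24 (limma, adjusted p = 3.08e-07). Array 3 was the lowest of its group in FUCA1 in 11 of 11 groups. At day 3 the EED226 arrays read 10.17, 10.04 and 9.67 and the DMSO arrays 9.54, 9.46 and 8.94, and the difference of 0.64 did not pass (limma, adjusted p = 0.0503). It passed without DMSO array 1 (0.76) or EED226 array 3 (0.79), and with the array number as a block (limma, adjusted p = 8.25e-07). A second, dim probe set of FUCA1 gave 0.09 at day 6.

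MANBA, beta-mannosidase, rose by 1.27 ± 0.08, and SGSH, the heparan N-sulfatase, rose by 0.96 ± 0.15 at day 6. SGSH read 5.99, 6.08 and 5.14 on the DMSO arrays, and its rise ran from 0.66 to 1.13 over the alternatives, passing in each. The day 3 rise of MANBA, 0.26, did not pass without array 3 of either arm (0.23 in both). HEXA, the alpha subunit of beta-hexosaminidase A, rose by 0.50 ± 0.09, and 1 dim probe set of HEXA gave -0.19. IDS, iduronate 2-sulfatase, rose by 0.58 ± 0.09 on its brightest probe set. That set can match several transcripts, and 5 of 9 other IDS probe sets had the opposite sign; the mean of the IDS sets gave 0.04 (limma, adjusted p = 0.656).

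GUSB, beta-glucuronidase, fell. Its day 6 arrays read 9.38, 9.43 and 9.31 with DMSO and 8.59, 8.82 and 8.79 with EED226, a fall of 0.64 ± 0.08 without overlap (limma, adjusted p = 7.76e-08). Its earlier fall of 0.28 at day 3 did not pass without DMSO array 1 (-0.24) or EED226 array 3 (-0.23). GLA, alpha-galactosidase A, read 9.49, 9.52 and 9.34 with DMSO and 9.12, 9.14 and 9.32 with EED226. Its fall of 0.26 ± 0.08 (limma, adjusted p = 0.0104) was of the same size as those at day 2, 0.28, and day 3, 0.33, where EED226 was again the lower. The day 2 fall did not pass without DMSO array 1 or 2 or EED226 array 2 or 3, with values from -0.27 to -0.26, and the day 6 fall did not pass with the compared arrays alone (limma, adjusted p = 0.0986). GAA differed by 0.37 ± 0.18 and MAN2B1, lysosomal alpha-mannosidase, by -0.06 ± 0.09, and neither passed.

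Among the 6 membrane proteins, 4 rose and none fell at day 6. SCARB2, or LIMP-2, the receptor that carries glucocerebrosidase to the lysosome, read 6.66, 6.41 and 6.40 with DMSO and 7.92, 7.79 and 7.91 with EED226 at day 2. It was the gene of the list with the largest difference at days 2 and 3, of 1.38 ± 0.19 and 1.91. At day 6 it read 6.71, 6.67 and 5.81 with DMSO and 8.94, 8.79 and 8.63 with EED226, a rise of 2.39 ± 0.19 (limma, adjusted p = 1.77e-11). Its 3 other probe sets, all dim, gave 0.01 to 1.44.

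LAMP2, the partner glycoprotein of LAMP1, rose by 0.30 at day 2, 0.40 at day 3 and 0.88 ± 0.08 at day 6, and its 3 other probe sets rose by 1.45 to 2.16 at day 6. The day 2 rise did not pass in 4 of the 6 fits that left out 1 array: without DMSO array 1 (0.29), DMSO array 3 (0.30), EED226 array 2 (0.31) or EED226 array 3 (0.24). LAMP1 itself read 10.93, 10.93 and 10.92 with DMSO and 11.38, 11.44 and 11.31 with EED226 at day 6. This rise of 0.44 ± 0.06 passed at day 6 only (limma, adjusted p = 1.09e-07), and the day 3 arrays lay between 10.92 and 11.12 over both arms.

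MCOLN1 read 5.61, 5.53 and 5.01 with DMSO and 6.15, 6.32 and 5.92 with EED226 at day 6, a rise of 0.75 ± 0.13 without overlap (limma, adjusted p = 2.22e-05). CD63 differed by -0.02 ± 0.07. NPC1, the membrane protein that exports cholesterol, differed by 0.38 ± 0.17 (limma, adjusted p = 0.0597), but its DMSO arrays read 8.09, 7.98 and 7.01, and without that lowest array the difference was 0.04. It passed without DMSO array 1 (0.58) or DMSO array 2 (0.52), and 1 dim probe set of NPC1 gave -0.12.

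Of the 5 V-ATPase genes, 4 rose at day 6 and the median difference was 0.68. ATP6V1A, the catalytic subunit of the cytosolic domain, read 10.29, 10.27 and 10.32 with DMSO and 10.96, 11.03 and 11.04 with EED226. Its rise was 0.71 ± 0.08 (limma, adjusted p = 1.55e-08), after 0.38 at day 3. ATP6V0D1, a subunit of the membrane domain, rose by 0.75 ± 0.10 and the accessory subunit ATP6AP1 by 0.68 ± 0.08.

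ATP6V1H, a regulatory subunit, rose by 0.23 ± 0.08 at day 6 and did not pass under 5 of 15 alternatives, with 0.11 without DMSO array 3 and 0.19 without EED226 array 2. ATP6V1B2, the partner of ATP6V1A, read 9.33, 9.36 and 9.27 with DMSO and 9.24, 9.21 and 9.20 with EED226. Those groups did not overlap, but the difference of -0.10 ± 0.06 did not pass (limma, adjusted p = 0.19).

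**Figure D3:**
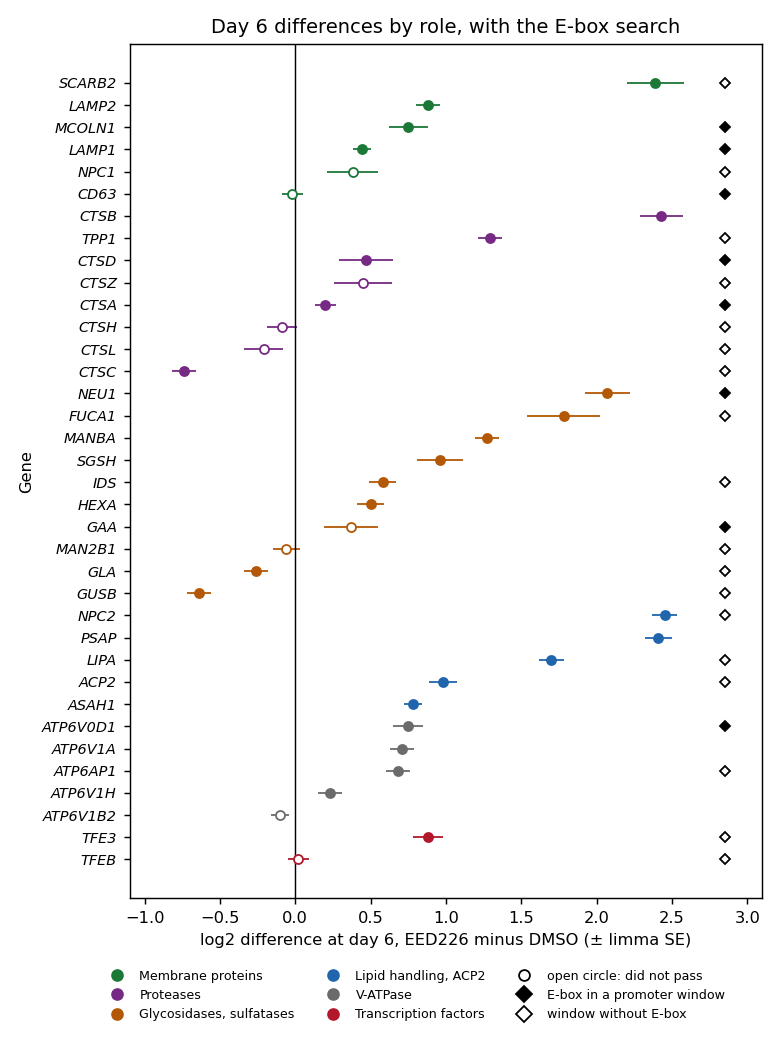
Points give the day 6 log2 difference between EED226 and DMSO of each of the 36 genes with its SE (horizontal axis), grouped and coloured by role, filled where adjusted p was under 0.05, and diamonds at the right show promoters with CACGTG (black) or without it (white). All 5 lipid-handling genes lie to the right of 0, and CTSC, GUSB and GLA are the filled points to the left.

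TFEB RNA fell at days 2 and 3, and TFE3 RNA rose at day 6. TFEB read 9.62, 9.69 and 9.67 with DMSO and 9.39, 9.37 and 9.37 with EED226 at day 2, and 9.58, 9.60 and 9.56 against 9.26, 9.36 and 9.35 at day 3. EED226 was lower without overlap at both times, by 0.28 ± 0.07 at day 2 (limma, adjusted p = 0.0127) and 0.25 at day 3 (limma, adjusted p = 0.0113). Leaving out DMSO day 2 array 2 moved the first adjusted p of limma to 0.0525, and leaving out EED226 day 3 array 1 moved the second to 0.0624. At day 6 the DMSO arrays read 9.60, 9.77 and 9.45 and the EED226 arrays 9.62, 9.58 and 9.69, and the groups overlapped. The day 6 difference was 0.02 ± 0.07 (limma, adjusted p = 0.815), and a second TFEB probe set gave -0.10. The change in the TFEB difference up to day 6, 0.28 from day 3 and 0.12 from day 1, did not pass.

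TFE3 read 7.20, 7.42 and 6.84 with DMSO and 8.06, 8.08 and 7.96 with EED226 at day 6. It rose by 0.88 ± 0.10 or 1.84-fold (limma, adjusted p = 8.76e-09) and had passed at no earlier time. Its other 3 probe sets were dimmer and gave -0.09, -0.05 and 0.34. The related factors MITF and TFEC differed by 0.00 ± 0.12 and 0.16 ± 0.09 at day 6, neither passing, and both lay below the lowest array median.

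**Figure D4:**
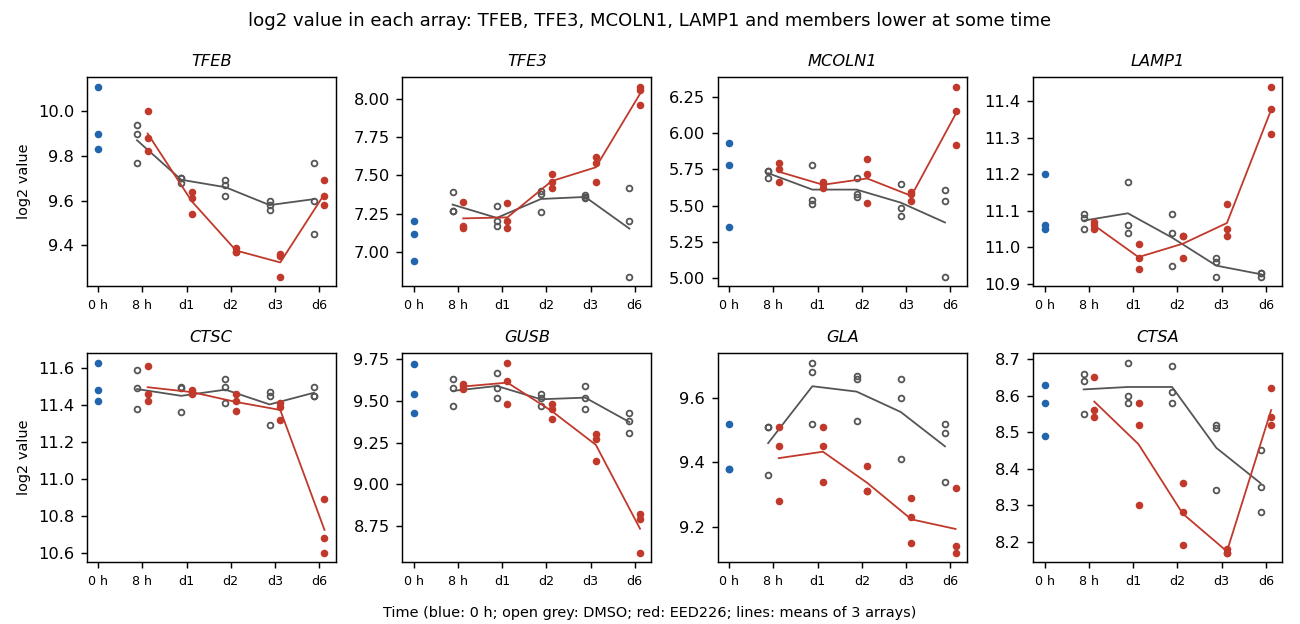
Each panel plots the log2 value of 1 gene on every array (vertical axis) against time (horizontal axis), in the colours blue for 0 h, open grey for DMSO and red for EED226, with lines through means of 3 arrays. TFEB with EED226 lies below DMSO at days 2 and 3 and overlaps it at day 6, TFE3 rises at day 6 to between 7.96 and 8.08, and CTSA is below DMSO at day 2 and above it at day 6.

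Day 6 differences were then set beside the E-boxes. The 8 genes with CACGTG had a median difference of 0.46, from -0.02 in CD63 to 2.07 in NEU1, and 6 of them rose and 0 fell. The 18 measured genes with a window but no CACGTG had a median of 0.51, with 9 rises and 3 falls. Over all genes, 23.7% passed as higher and 27.3% as lower. No difference between the 2 sets of genes was tested. Genes without a window were in neither set: LAMP2, CTSB, HEXA, PSAP, ASAH1, SGSH, MANBA, ATP6V1A, ATP6V1B2 and ATP6V1H. All of these but ATP6V1B2 rose at day 6.

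The timing of the rise was tested as a difference of differences. From day 1 to day 6 the EED226 effect became more positive in 23 of the 36 genes and more negative in 2, against 18.6% and 15.8% of all genes (34.5% in all). From day 3 to day 6 it became more positive in 20 and more negative in 3, against 14.2% and 10.7% (24.9% in all). Both comparisons share the day 6 arrays. With arrays quantile-normalised again, the counts were 23 and 3 for day 6 minus day 1 and 18 and 3 for day 6 minus day 3. That setting turned the balance over all genes to 3337 more positive and 3884 more negative for day 6 minus day 1, from 3682 and 3132, and to 2302 and 2985 for day 6 minus day 3, from 2802 and 2122.

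The genes differed in the time at which they first passed the test. LAMP2, SCARB2, CTSB, LIPA, NPC2 and PSAP, 6 of the 36, rose at days 2, 3 and 6, as did 5.99% of all genes. A further 12, among them LAMP1, MCOLN1, FUCA1, SGSH and TFE3, passed as higher at day 6 and at no other time, as did 12.5% of all genes. With the array number as a block, 4 more genes passed as higher at day 2 in limma: CTSH (0.28, adjusted p = 0.00562), FUCA1 (0.38, adjusted p = 0.00182), IDS (0.22, adjusted p = 0.0141) and ATP6V1A (0.22, adjusted p = 0.048). Across the 5 times, 7 of the 36 genes never passed: CD63, NPC1, CTSL, CTSZ, GAA, MAN2B1 and ATP6V1B2. Over all genes, 46.3% never passed.

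Lysosome genes were also followed in DMSO culture. Between 0 h and day 6 with DMSO, 1 gene rose and 2 fell (8.33%), where 1.72% of all genes passed, 0.829% as higher and 0.895% as lower. The difference was negative in 29 of the 36 genes, against 10941 of all 19775. Its median was -0.10, against -0.02 over all genes. DMSO array 3 was the lowest of its day 6 group in 28 of the 36 genes. An unadjusted p under 0.05 was found in 14 of the 36, against 2962 of 19775 genes. TPP1 rose by 0.29 ± 0.08, PSAP fell by 0.40 ± 0.09 and TFEB fell by 0.34 ± 0.07, from 9.90, 10.11 and 9.83 at 0 h. Over the alternatives the count of genes ran from 0 to 8, and it was 0 without 0 h array 2, 1 without DMSO array 3 and 5 without DMSO array 2. Against 0 h, EED226 at day 6 was higher in 21 of the 36 genes and lower in 5, where 48.2% of all genes passed, 22.1% as higher and 26.2% as lower. The 21 were also higher than DMSO at day 6, a comparison with the same EED226 arrays. The 5 lower genes were CTSC, GUSB, GLA, ATP6V1B2 and TFEB.

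Lists of 166 other genes of the lysosome and its regulation were read in the same way. Of 154 measured, 92 rose and 20 fell at day 6 (72.7%, against 51% of all genes), with a median difference of 0.43. Among 29 other hydrolases, 19 rose and 3 fell: CTSO, a cysteine protease, rose by 4.87 ± 0.33, from a mean of 3.86 to 8.73, and NAAA, which hydrolyses N-acylethanolamines, fell by 1.32 ± 0.10. CTSS, a protease of class II antigen processing, rose by 1.31, and the thioesterase PPT1 fell by 0.21. Among 28 other membrane proteins, 16 rose and 4 fell, with LAPTM5 rising by 1.51 and CD164 by 1.32. The ion channel TPCN2 fell by 1.00 and the metal transporter SLC11A1 fell by 0.51. Of 12 other V-ATPase subunits, 9 rose and 2 fell, with ATP6V0E1 rising by 0.95 and ATP6V1D by 0.88. ATP6V0A2 fell by 0.67 and ATP6V0E2 fell by 0.40.

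Enzymes reach the lysosome by a mannose 6-phosphate tag, and 13 of 21 sorting and fusion genes rose while 2 fell. IGF2R, a receptor for that tag, rose by 1.80 ± 0.13, from a mean of 6.74 to 8.54, and GNPTAB, which makes the tag, rose by 1.47 ± 0.11. RAB7A, the late endosomal GTPase, fell by 0.65 and NAGPA, which uncovers the tag, fell by 0.45. Of 32 genes that regulate TFEB or mTORC1, 17 rose and 5 fell. PPP3CA, a catalytic subunit of the phosphatase calcineurin that acts on TFEB, rose by 2.69 ± 0.14 and TSC1, a brake on mTORC1, by 1.44, while NPRL3 of the GATOR1 complex fell by 0.87 and NPRL2 fell by 0.52. Of 32 autophagy genes, 18 rose and 4 fell, with the receptor OPTN rising by 1.97 ± 0.11, and GABARAP by 1.07. ATG7 fell by 0.51 and PIK3R4 fell by 0.31.

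**Figure D5:**
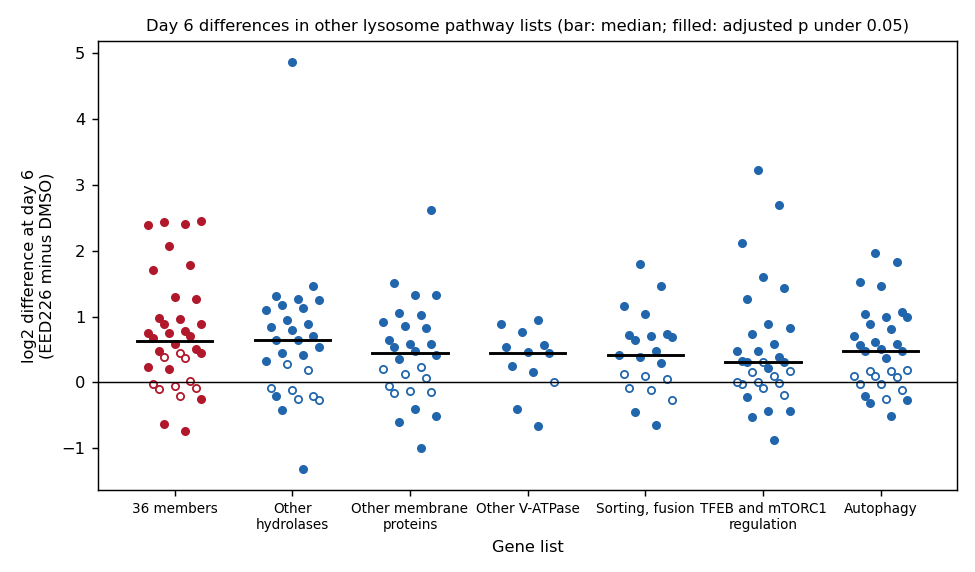
The vertical axis gives the day 6 log2 difference between EED226 and DMSO, 1 point per measured gene, for the 36 list genes (red) and 6 further lists (blue), with filled points for an adjusted p under 0.05 and a bar at each median. The medians lie between 0.31 for TFEB and mTORC1 regulation and 0.65 for other hydrolases, and the highest point is CTSO at 4.87.

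Some array measures moved with the groups. Among the arrays of the DMSO day 6 group the lowest correlation was 0.986, against 0.994 within the other groups. Array 3 of that group had a 75th percentile of 6.1, against 6.53 and 6.55 on arrays 1 and 2, and was the lowest of all 33 arrays in 15 of the 36 genes. Without array 3, 21 genes rose and 3 fell at day 6, against 24 and 3 with it, and CTSD, CTSA and ATP6V1H no longer passed. The share of all genes that passed without array 3 is not given here. All EED226 arrays at day 6 had high 75th percentiles, 6.68 to 6.74, and no array of another group went above 6.62. The part of this shift in the rises was not tested. The 3′ minus 5′ difference of the ACTB control probes, which depends on RNA integrity, was 2.87 to 3.29 with DMSO and 3.50 to 4.14 with EED226 at day 6. For the GAPDH control probes it was 0.24 to 0.29 with DMSO and 0.52 to 0.74 with EED226. With the ACTB difference as a covariate, 24 genes rose and 4 fell. Neither measure overlapped between the arms at day 6, so this fit cannot tell RNA quality and treatment apart. The arms were apart at day 3 too. ACTB was 3.05 to 3.16 with DMSO and 3.26 to 3.74 with EED226, and GAPDH 0.23 to 0.24 and 0.3 to 0.44. At day 2 GAPDH was 0.24 to 0.26 with DMSO and 0.28 to 0.37 with EED226, while the ACTB ranges overlapped.

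Markers of other cells were read because myeloid cells are rich in lysosomes. The mean over 11 of 13 myeloid markers was 3.19 to 3.24 with DMSO and 3.07 to 3.25 with EED226 at day 6, and 10 of the 11 lay below the lowest array median in each arm, CD14 and CSF1R among them. Of the 11, 1 rose and 5 fell, where 23.7% of all genes passed as higher and 27.3% as lower. LYZ, a lysozyme found in myeloid granules, rose by 2.28 to 5.50. CD163, ELANE, ITGAM, MPO and S100A8 were lower with EED226, with differences from -0.50 to -0.32. Their means lay below the lowest array median in both arms, except ITGAM with DMSO at 4.23. The mean over 6 of 7 B cell markers was 10.14 to 10.47 with DMSO and 10.79 to 10.98 with EED226, and none lay below that median. The T and NK list had 5.50 to 5.64 with DMSO and 5.22 to 5.40 with EED226, with CD3D at 9.04 and 8.09 and CD3G at 10.13 and 9.80. Of its 6 genes, CD3D and GNLY passed as lower and none as higher, where 27.3% of all genes passed as lower. CD3G (-0.34), CD3E (-0.25), CD2 (-0.01) and NKG7 (0.12) did not pass. In each arm 3 of the 6 lay below the lowest array median. In the list of 5 stromal and endothelial genes, with means of 4.19 to 4.71 with DMSO and 4.91 to 5.05 with EED226, PECAM1 rose by 4.15 and COL1A1 fell by 0.80. COL1A2, CDH5 and VWF gave -0.29, -0.18 and 0.05 without passing. The part of these marker genes in the lysosome results was not tested. In RNA of a whole culture, fewer cells that express a gene and less RNA per cell cannot be told apart.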

How the data were processed

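The authors deposited 1 log2 expression value per probe set and array, which per the submitters' processing notes came from RMA, a method that corrects background, quantile-normalises arrays and summarises probes. Which version was run, and on which arrays jointly, is not given in the sources used here. RNA was labelled from its 3′ end, per the labels' protocols. Of 54675 probe sets, 62 were controls, 41091 had 1 gene symbol, 1801 had several and 11777 were unnamed here; only the 41091 were used, which gave 19775 genes. Of the 36 genes, 20 had other probe sets and 7 of these had one of opposite sign at day 6; 14 brightest sets can match several transcripts.

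Two-sided tests used limma 3.58.1 (R 4.3.3), fitting a mean for each group to the 33 arrays, which left 22 residual degrees of freedom. The procedure was tested on simulated data with independent noise and few changed genes, unlike the day 6 comparison. Those data held no array or replicate effects. The number of arrays limits the precision. Replicates are biological triplicates by the design text; groups follow the titles. The members and lists were chosen with earlier results of these data known. The text gives array values for the 6 largest rises and the falls (up to 4) at day 6 among genes that passed without overlap, up to 3 further genes with the smallest p at days 1, 2 and 3, and always TFEB, TFE3, LAMP1 and MCOLN1; other array values were given after they were seen. Each pathway list names the 2 rises and 2 falls with the smallest p, and MITF and TFEC. Same-numbered arrays of the 2 arms deviated together at 8 h (correlations 0.199 to 0.318), day 1 (0.110 to 0.358) and day 2 (0.151 to 0.169), but not in every pair at day 3 (-0.009 to 0.233) or day 6 (0.046 to 0.126). The pairing comes from the title numbers. Alternatives covered scaling, probe set choice, dim genes, variance model, arrays left out, the replicate block and an RNA quality covariate.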

Additional observations from a re-analysis of the deposited data

Results flagged for a closer look

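The interaction term of limma, the change of the EED226 minus DMSO log2 difference between 2 times, passed the test (adjusted p under 0.05 over all genes) in 25 of the 36 genes for day 6 minus day 1, against 34.5% of all genes, and in 23 for day 6 minus day 3, against 24.9%. These comparisons share the day 6 arrays, and positive values mean a more positive effect at day 6.

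Among the lipid-handling genes, the change from day 1 was 0.92 in ACP2, 0.86 in ASAH1, 1.49 in LIPA, 2.18 in NPC2 and 2.18 in PSAP. From day 3 it was 0.49 in ACP2, 0.56 in ASAH1, 0.61 in LIPA, 1.27 in NPC2 and 1.40 in PSAP. Among the proteases, the change from day 1 was 0.36 in CTSA, 1.87 in CTSB, -0.77 in CTSC and 1.27 in TPP1. From day 3 it was 0.48 in CTSA, 1.14 in CTSB, -0.71 in CTSC, 0.85 in TPP1 and -0.48 in CTSH. Among the glycosidases and sulfatases, the change from day 1 was 1.73 in FUCA1, -0.66 in GUSB, 0.48 in HEXA, 0.50 in IDS, 1.15 in MANBA, 2.13 in NEU1 and 0.99 in SGSH. From day 3 it was 1.14 in FUCA1, -0.36 in GUSB, 0.34 in IDS, 1.01 in MANBA, 1.43 in NEU1 and 1.00 in SGSH. Among the membrane proteins, the change from day 1 was 0.56 in LAMP1, 0.81 in LAMP2, 0.71 in MCOLN1 and 1.75 in SCARB2. From day 3 it was 0.33 in LAMP1, 0.48 in LAMP2 and 0.69 in MCOLN1. Among the V-ATPase subunits, the change from day 1 was 0.80 in ATP6AP1, 0.78 in ATP6V0D1, 0.79 in ATP6V1A and 0.40 in ATP6V1H. From day 3 it was 0.61 in ATP6AP1, 0.65 in ATP6V0D1 and 0.33 in ATP6V1A. Among the transcription factors, the change from day 1 was 0.88 in TFE3. From day 3 it was 0.69 in TFE3.

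The CTSA difference passed at day 3 and at day 6 with opposite signs, and its change passed. CTSH passed as higher at day 3 (0.39) and gave -0.09 at day 6 without passing, and its change passed too. No reason for the later changes was tested.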

How the results depend on the processing

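Each result was recomputed with arrays centred on their medians or quantile-normalised again, with all probe sets of a gene averaged, genes above the median level, the compared arrays alone, a trended robust variance, array weights, the replicate block, an ACTB 3′ to 5′ covariate, and each array left out. No direction reversed among the passing results. Unless stated, counts under an alternative are given without the share of all genes that passed in that fit. They show how far the main counts moved, and not a contrast with all genes. An alternative chosen after seeing the data left DMSO day 6 array 3 out of the fit at days 1 to 3.

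At day 1 the count of genes that passed was 1; it was 2 with the compared arrays alone, 3 with array weights, 2 with the replicate block, 2 with DMSO day 6 array 3 left out and 0 to 0 with 1 array of the time left out. For DMSO at day 6 against 0 h it was 3; it was 8 among genes above the median level, 0 with the compared arrays alone, 6 with the trended robust variance, 6 with the replicate block and 0 to 5 with 1 array left out. The counts of 0, 9, 17 and 27 genes at 8 h and days 2, 3 and 6, of 25 and 23 in the changes between times, of 26 against 0 h and of 112 pathway genes stayed within 1.5 times. With 1 array left out they ran over 0 to 0, 7 to 9, 16 to 18, 24 to 29, 25 to 26, 20 to 24, 24 to 26 and 105 to 113.

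At day 6 quantile normalisation gave 23 rises and 5 falls among the lysosome genes, and 85 and 28 among the pathway genes. At day 2 the split over all genes was 1337 and 529, but 1333 and 311 with centring and 1400 and 892 with quantile normalisation. For DMSO at day 6 against 0 h it was 164 and 177, but 158 and 77 with centring and 267 and 170 with quantile normalisation. All calls were kept in every alternative for 25 of the 36 genes at day 6. With all probe sets of a gene averaged, the rises of CTSB at day 1 (0.33), of TPP1 (0.16), ASAH1 (0.07) and ATP6V1A (0.26) at day 3 and of IDS at day 6 (0.04), and the fall of GUSB at day 3 (-0.20), did not pass; with the ACTB covariate, CTSH (0.26), MANBA (0.21) and TFEB (-0.22) at day 3 did not. Between EED226 and DMSO, the block changed the count of passing genes by over 1.5 times at day 1 only. At day 3, where same-numbered arrays did not deviate together in every pair, FUCA1 and IDS passed with the block. Each passed in 9 of 16 alternatives, of which the block was 1. For these 2 genes the array number carried a shared pattern. FUCA1 was lowest on array 3 in 11 of 11 groups, and IDS on array 1 in 10 of 11.

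Differences of genes near or below the array median are limited by signal over background, as for CTSL and CTSD.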

Other observations

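FUCA1 was lowest on array 3 in 11 of 11 groups, as was the B cell receptor gene CD79B, with ATP6V1B2 and CTSC lowest on that array in 9 of the 11. In FUCA1 the 3 arrays at 0 h read 10.12, 9.80 and 9.50. This pattern was noticed in the values and was given no test.

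Of the other lysosome and pathway genes, SESN3 and SESN1, which encode sestrins that restrain mTORC1, rose at day 6 by 3.22 ± 0.18 (from 8.20 to 11.42) and 2.12 ± 0.12 (from 5.00 to 7.12). PIP4P2, a phosphatase of late endosomal phosphoinositides, rose by 2.62 ± 0.22, from 4.53 to 7.15, and the autophagy gene WIPI1 rose by 1.83 ± 0.23, from 5.58 to 7.42. These 4 were named after their values were seen.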
